A study of Mus musculus with 4 samples.

Results

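The early growth response factors Egr1, Egr2 and Egr3 and the corepressors Nab1 and Nab2 were followed in mouse haematopoietic stem cells (HSCs). These 5 genes were chosen by name, and all 5 were found among the 34315 features of the deposited table, each as 1 feature of its own. Messenger RNA came from HSCs freshly sorted from C57BL/6 bone marrow as side population (SP) cells, which expel a dye, with the KSL-CD150+ surface phenotype. The samples are 4 wild-type libraries, each labelled as a technical replicate of biological replicate 1, while the series design speaks of duplicates. An arm labelled Dnmt3a-KO, sorted in the same way, enters through the mean count, log2 fold change and p-value of the authors' deposited table. Which part of Dnmt3a was deleted and how, and the age, sex and number of the mice, were not stated in the labels.

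Egr proteins are zinc finger transcription factors made within minutes of growth factor, adhesion or stress signals. Serum response factor (SRF) and its ternary complex partners of the Elk family, which are switched on by the ERK kinases, drive Egr1 transcription. Nab proteins bind Egr1, Egr2 and Egr3 and repress the genes these factors occupy, in part by recruiting the NuRD chromatin remodelling complex, and Nab2 is itself an Egr target, so the pair forms a negative feedback loop. In mouse HSCs, Egr1 is known for holding the cells in quiescence and in their marrow niche.

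Library totals ranged from 40709659 to 47408552 counts, and a library's 0 allows up to 0.0737 CPM (3 counts). Libraries 1 and 2 differed from each other by somewhat more than counting noise, and so did libraries 3 and 4. Both gaps were small beside that between the pairs, so each pair was averaged and counted as 1 sample, which leaves n = 2. The spread between these samples may be technical, and no p-value was computed from them. For Dnmt3a itself the means of the pairs were 8399 and 5304 normalised counts and the knockout arm had 8424, so a count summed over all its exons cannot check the label. All 10 HSC markers examined were present, from Kit at 56138 and 65243 normalised counts in the pairs to Hoxb5 at 407 and 545, and Flt3, which falls to low levels in long-term HSCs, was at 2019 and 1626. In such bulk samples fewer cells of a type and less RNA per cell cannot be told apart.

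Egr1 separated the wild-type libraries more widely than either Nab gene did. Egr1 (chromosome 18, 35020861 to 35024610, plus strand, mm9) had 2082 normalised counts in library 1, 2187 in library 2, then 71968 and 69505 in the last pair. Libraries 3 and 4 were high and libraries 1 and 2 were low. The ratio of the higher to the lower pair was 33.1, with an exact 95% interval of 32.1 to 34.2, and over the pairs the wild-type mean was 36436 ± 48509 (SD, n = 2). Intervals of this kind hold counting error alone, and they are too narrow if PCR copies of a molecule were counted as separate reads. Egr1 alone took 0.159% of all counts in library 3, against 0.00486% in library 1.

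Egr2, which controls myelination in Schwann cells and macrophage and T cell programmes, was close to silent in the first pair. At Egr2 (chromosome 10, 67000617 to 67004936, plus strand) libraries 1 and 2 held 15 and 6 reads, while libraries 3 and 4 held 313 and 334. These are 15.8, 6.28, 299 and 314 normalised counts, in the same order. Libraries 3 and 4 stood 27.8-fold above libraries 1 and 2 (exact 95% interval 18.03 to 45.2), and the mean over the pairs was 159 ± 209 (SD, n = 2).

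Egr3, which acts with Egr2 in T cell tolerance and in muscle spindle development, showed the widest gap of the 5 genes. Egr3 (chromosome 14, 70477252 to 70479964, plus strand) had 4 reads in library 1 and 6 in library 2, but 520 in library 3 and 589 in library 4. On the normalised scale these were 4.21, 6.28, 496 and 553, with a mean over the pairs of 265 ± 367 (SD, n = 2). The ratio was 100.03, with an exact 95% interval of 54.2 to 209, whose width reflects the 4 and 6 reads. Reads at Egr3 carry a limit of their own, because the antisense feature HAG_012788 (70478533 to 70484628, minus strand) overlaps it by 1432 bases and the kit as named does not mark strand. For HAG_012788 the means of the pairs were 15.7 and 1439 normalised counts, so both features had the same high and low libraries.

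**Figure D1:**
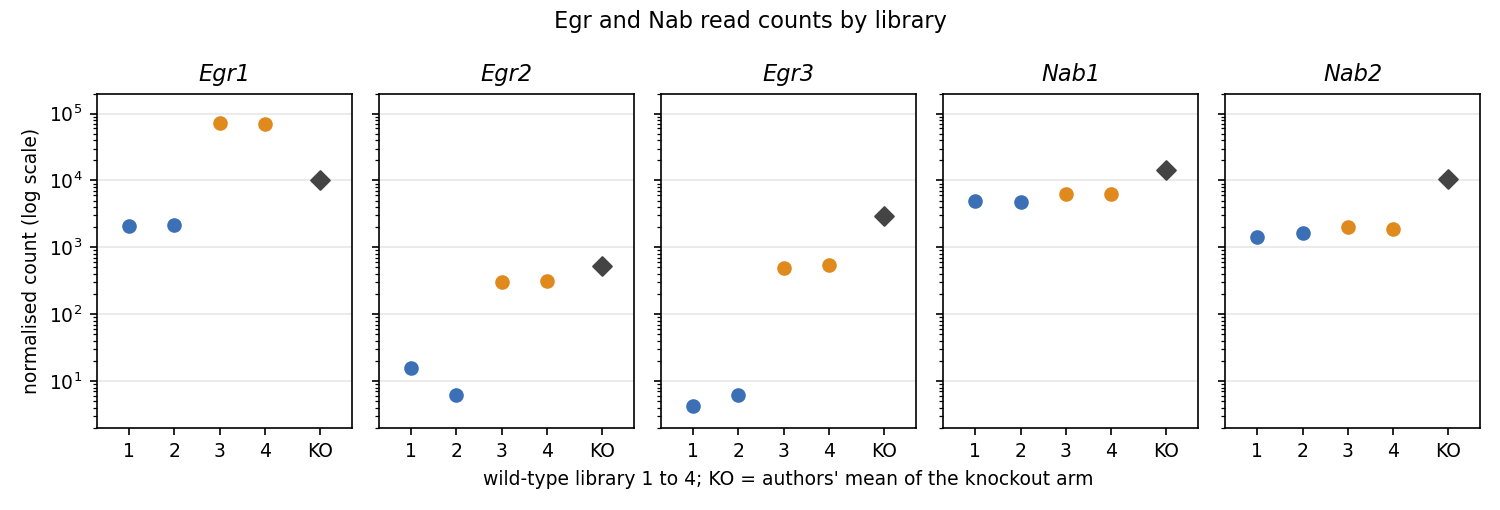
Normalised read counts (log scale) of the 5 genes in wild-type libraries 1 and 2 (blue), 3 and 4 (orange) and as the authors' mean of the arm labelled knockout (grey diamond), on the same scale. Egr1, Egr2 and Egr3 are 27.8-fold or more higher in libraries 3 and 4, both Nab genes are 1.27-fold higher, and the knockout mean lies above all wild-type libraries for 4 genes and between the pairs for Egr1.

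The Nab corepressors were steady by comparison. Nab1 (chromosome 1, 52512693 to 52557292, minus strand) stood at 4978, 4787, 6194 and 6186 normalised counts in libraries 1 to 4, a mean of 5536 ± 924 over the pairs (SD, n = 2). Libraries 3 and 4 were again the higher ones, by 1.27-fold with an exact 95% interval of 1.23 to 1.30. Nab2 (chromosome 10, 127097974 to 127103759, minus strand) stood at 1448, 1650, 2032 and 1902, a mean of 1758 ± 295 (SD, n = 2). Its ratio between the pairs was also 1.27, with an exact 95% interval of 1.21 to 1.33. Within the first pair, Nab2 was 1.14-fold higher in library 2 than in library 1 (exact 95% interval 1.06 to 1.23), so libraries of 1 pair could differ by somewhat more than counting error. Nab2 overlaps Stat6 on the opposite strand by 70 bases at its end, and Stat6 was at 6232 and 6937 normalised counts in the pairs and 12274 in the knockout mean.

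Of 13089 features with a wild-type mean of at least 100 normalised counts, 1.6% were at least 2-fold higher in libraries 3 and 4, as were 3 of the 5 genes here. The pairs are not labelled groups, so this difference was not tested. Other immediate early genes moved with the Egr genes: 13 of 14 listed, all but Junb, were at least 2-fold higher in libraries 3 and 4. Junb was read from a feature shared with AK006748, which held 404 reads over the 4 libraries. The summed level of the 14 was 12590 to 12593 normalised counts in libraries 1 and 2 and 215504 to 220473 in libraries 3 and 4. Neutrophil granule genes moved the other way, with 8 of 8 at least 2-fold lower against 4.52% of the 13089 features, none of them at 0, and summed levels of 50340 to 51012 and 10218 to 10292. Monocyte and macrophage markers summed to 10908 to 10971 and 12727 to 12754, with none of the 5 at 0. Of these sums, Lyz2 alone gave 9682 and 11560 in the means of the pairs. The part of these genes' sources in the Egr values was not tested.

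Levels of different genes were compared per kb of exon. In libraries 1 and 2 the order was Nab1 at 961 normalised counts per kb, Egr1 at 695, Nab2 at 603, Egr2 at 3.72 and Egr3 at 3.71. Egr2 and Egr3, with at most 15 reads each in a library, could not be placed in order there. In libraries 3 and 4 the order was Egr1 at 23041 per kb, Nab1 at 1218, Nab2 at 766, Egr3 at 371 and Egr2 at 103. Egr1 was then the feature of rank 66 among 24349 features with at least 300 bases of exon, where in libraries 1 and 2 it had rank 5816. Over both pairs, Egr1 lay above and below Nab1, so their order did not hold beyond the spread between samples.

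Ratios taken within a library do not depend on scaling between libraries. Summed over both Nab genes and over the 3 Egr genes, the level per kb of Nab was 2.25 and 2.20 times that of Egr in libraries 1 and 2, and 0.0841 and 0.0846 times in libraries 3 and 4. The ratio of Nab2 to Nab1 per kb stayed between 0.576 and 0.682 in the 4 libraries. Egr1 supplied 97.9% to 99.1% of the summed Egr level in every wild-type library.

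**Figure D2:**
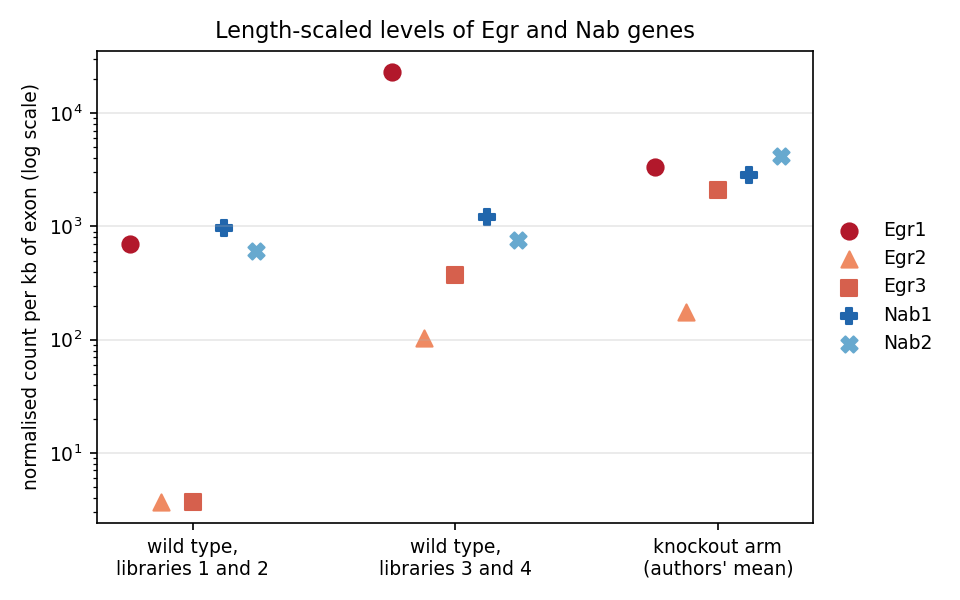
Normalised counts per kb of exon (log scale) of the 5 genes, as the mean of wild-type libraries 1 and 2, the mean of wild-type libraries 3 and 4, and the authors' mean of the arm labelled knockout. Egr1 leads by far in libraries 3 and 4 at 23041, whereas in the knockout mean Nab2 at 4161, Egr1 at 3347, Nab1 at 2868 and Egr3 at 2110 lie close together.

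The arm labelled knockout was then compared with wild type through the authors' deposited table, which called Egr3 and Nab2 higher and none of the 5 lower. Of the 21778 features tested, 3.15% were called higher and 3.7% lower at an adjusted p under 0.05. The smallest rise the table called was 5.69-fold. Its wild-type arm is these same 4 libraries, labelled as technical replicates of 1 biological replicate. The p-values quoted from it may therefore not hold the spread between mice. For 4 of the 5 genes the knockout mean was higher than either wild-type pair, as it was for 38.2% of all features tested. The knockout arm is 1 mean, whose spread between libraries was not examined. In it the other immediate early genes summed to 189565 normalised counts, the neutrophil granule genes to 30902 and the monocyte and macrophage markers to 11201. These 3 sums lie within the wild-type range over the 4 libraries, but single genes did not all do so. Of the 14 immediate early genes, the knockout mean lay above both pairs for 6, below both for 1 and between them for 7. Among these 14, 2 were called higher and 2 lower. Lyz2 alone gave 10079 of the monocyte and macrophage sum. Of those 5 markers, 3 lay below both pairs and 1 above, and Emr1, at 15.8 against 161 and 77.2, was called lower. Outside the wild-type range of sums were 6 markers of lymphoid and more mature cells that are low in or absent from long-term HSCs, Flt3 among them. These 6 summed to 582 in the knockout mean against 2019 to 2383 in the 4 libraries. In the knockout mean Flt3 was at 514 normalised counts, and 3 of the 6 were at 0. The part of these lists in the differences was not tested.

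Egr3 rose to a knockout mean of 2983 normalised counts, above all 4 wild-type libraries. The authors' deposited table put this rise at 11.2-fold, or 3.48 on the log2 scale (adjusted p 0.00377). Set against each wild-type pair, the knockout mean was 569-fold higher than libraries 1 and 2 (exact 95% interval 309 to 1186) and 5.68-fold higher than libraries 3 and 4 (5.34 to 6.06). Recomputed over the wild-type libraries left when 1 is dropped, the log2 ratio ran from 3.08 to 4.14, the highest without library 4. The overlapping antisense feature HAG_012788 reached 6981 and was also called higher in the authors' deposited table, by 3.26 on the log2 scale (adjusted p 0.00728). The labels do not say how reads in the overlap were counted, so the Egr3 count is uncertain.

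Nab2 rose to 10686 normalised counts in the knockout mean, and the authors' deposited table put this rise at 6.07-fold, or 2.60 on the log2 scale (adjusted p 0.0397). This rise depended less on the choice of wild-type pair than that of Egr3 did. It was 6.90-fold over libraries 1 and 2 (exact 95% interval 6.64 to 7.16) and 5.43-fold over libraries 3 and 4 (5.26 to 5.61). Nab1 reached 14570 normalised counts, above all 4 wild-type libraries, but the authors' deposited table did not call its log2 fold change of 1.40 (adjusted p 0.417). Against the pairs Nab1 was 2.98-fold and 2.35-fold higher.

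Egr1 and Egr2 were not called. For Egr1 the authors' deposited table gave -1.83 on the log2 scale (adjusted p 0.212), but its knockout mean of 10275 normalised counts lay between the wild-type pairs. It was 4.81-fold above libraries 1 and 2 (exact 95% interval 4.66 to 4.97), while libraries 3 and 4 stood 6.88-fold above it (exact 95% interval 6.80 to 6.97), so the sign of the Egr1 difference depends on the wild-type pair. Egr2 had a knockout mean of 518 normalised counts, and the authors' deposited table gave it 1.69 on the log2 scale (adjusted p 0.270). Its knockout mean was 47.03-fold above libraries 1 and 2 (30.7 to 76.2) and 1.69-fold above libraries 3 and 4 (1.54 to 1.86).

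**Figure D3:**
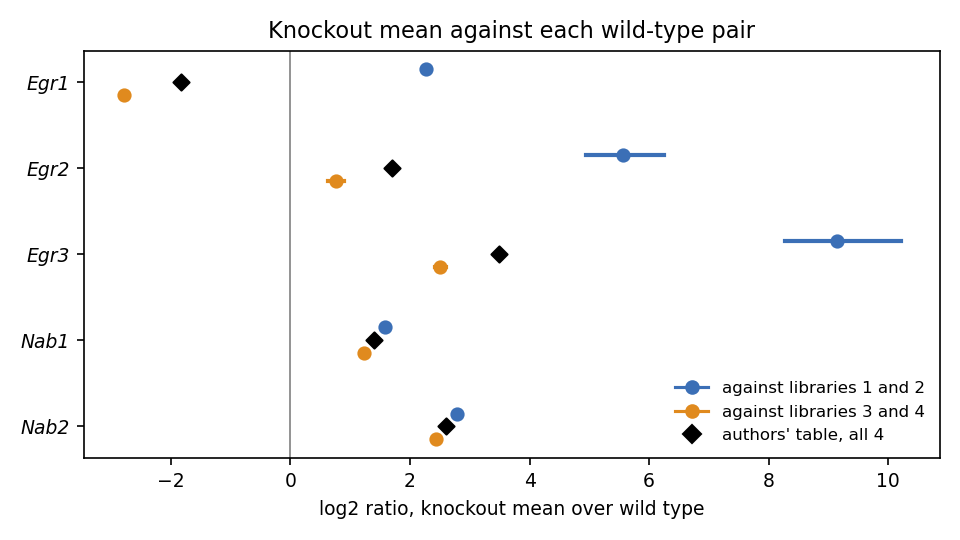
Log2 ratio of the authors' knockout mean to wild-type libraries 1 and 2 (blue) and 3 and 4 (orange), with exact 95% intervals for counting error as bars, and the authors' deposited log2 fold change over all 4 libraries (black diamonds). The ratios to both pairs are close for Nab1 and Nab2, far apart for Egr2 and Egr3, and of opposite sign for Egr1, at 2.27 and -2.78.

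The makeup of the Egr and Nab transcripts in the knockout mean was unlike that of any wild-type library. Egr1 supplied 59.4% of the summed Egr level per kb, Egr3 37.5% and Egr2 3.10%, where Egr3 supplied at most 1.69% in a wild-type library. Nab2 stood at 1.45 times the level of Nab1 per kb, against at most 0.682 in wild type. The ratio of summed Nab to summed Egr was 1.25, between the values of libraries 1 and 2 and those of libraries 3 and 4. These ratios are descriptions of 1 knockout mean, with no replicate check. The Egr3 share may include reads from the stretch that overlaps its antisense feature.

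Of the other family members listed, Egr4 followed Egr1 in lying between the pairs, and Wt1, a zinc finger factor that binds similar sites, had 0 reads in all wild-type libraries. Egr4 (chromosome 6, 85461116 to 85463536, minus strand) had 2, 1, 147 and 126 reads in libraries 1 to 4. The means of the pairs were 1.58 and 129 normalised counts, and the knockout mean was 11.2. Libraries 3 and 4 were again high and libraries 1 and 2 close to 0, and the authors' deposited table gave a log2 fold change of -2.43 (adjusted p 0.0804).

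The promoters of Egr2, Nab1 and Nab2 are shown because windows could be shown for these 3 of the 5 genes only. They stood higher in the knockout mean than in all wild-type libraries, as did Egr3, which is not shown. Egr2 is a known target of SRF, and Nab2 of the Egr factors themselves. RefSeq windows on GRCm38.p6, from 250 bases before to 50 bases after a start, were at hand for these 3 genes, and these coordinates are not on the mm9 build of the counts. Both strands were searched for the Egr sites GCGTGGGCG and GCGGGGGCG, for the shorter Egr core CGTGGGC that the first of these contains, for the CArG box bound by SRF, and for the cAMP response element TGACGTCA. Of 32851 windows, 0.612%, 2.91%, 4.24%, 1.63% and 1.79% held these motifs, in that order. Capitals mark every match. The Egr2 window is the first of 3 overlapping ones that hold the same CArG box, at chr10:67537619-67537918 (plus strand), out of 5 windows for Egr2, and it was chosen for that match. Nab1 lies at chr1:52500399-52500698 and Nab2 at chr10:127666654-127666953, both on the minus strand.
Egr2: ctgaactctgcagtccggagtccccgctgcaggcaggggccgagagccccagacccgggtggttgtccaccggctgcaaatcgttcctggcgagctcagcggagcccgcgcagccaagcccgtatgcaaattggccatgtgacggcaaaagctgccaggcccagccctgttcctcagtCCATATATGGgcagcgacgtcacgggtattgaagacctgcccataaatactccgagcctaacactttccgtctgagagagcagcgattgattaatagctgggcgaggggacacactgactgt
Nab1: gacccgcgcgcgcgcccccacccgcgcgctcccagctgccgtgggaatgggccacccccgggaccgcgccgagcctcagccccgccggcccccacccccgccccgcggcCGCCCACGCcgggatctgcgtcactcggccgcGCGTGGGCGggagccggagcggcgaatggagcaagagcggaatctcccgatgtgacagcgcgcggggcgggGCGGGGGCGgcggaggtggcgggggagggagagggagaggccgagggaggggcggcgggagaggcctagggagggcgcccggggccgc
Nab2: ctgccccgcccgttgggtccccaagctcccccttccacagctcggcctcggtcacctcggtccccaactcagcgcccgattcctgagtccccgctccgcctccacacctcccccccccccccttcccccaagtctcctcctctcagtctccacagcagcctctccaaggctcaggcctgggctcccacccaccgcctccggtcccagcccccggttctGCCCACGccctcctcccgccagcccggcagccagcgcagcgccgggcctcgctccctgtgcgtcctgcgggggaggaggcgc
In the Egr2 window the CArG box begins 72 bases before the start. A further Egr2 window holds a different CArG box, and the remaining one an Egr core. Nab1 holds 2 matches to GCGTGGGCG, which begin 141 and 109 bases before its start, and 1 match to GCGGGGGCG at 38 bases. Nab2 holds 1 Egr core at 32 bases and no longer Egr site, and no window of these genes holds the cAMP response element. A match describes these letters only and does not show that a factor was bound.

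Among 32 known Egr target genes listed, 30 passed a mean of 10 normalised counts over both arms, of which 10 rose, 0 fell and 20 were not called. At that minimum, 3.72% of all features were called higher and 4.3% lower, and the authors' deposited table gave a median of 1.50 on the log2 scale for the list and -0.04 for all features. The list was chosen with earlier results of these data known, and some genes reach the minimum only by their knockout value, so these counts are a description. Nfil3, a leucine zipper factor, rose from 95.5 and 184 normalised counts in the pairs to 5822, a rise of 41.2-fold in the authors' deposited table (adjusted p 7.62e-06). Id3, an inhibitor of E proteins, went from 10.5 and 89.0 to 1736 normalised counts. The growth factor chain Pdgfa rose from 30.4 and 25.03 to 479. The cell cycle inhibitor Cdkn1a rose from 185 and 872 to 7573 normalised counts, and the clotting initiator F3 from 3.14 and 5.22 to 69.2.

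Other target genes that rose were Gdf15, Ptges, Hbegf and Icam1. Among those not called with high wild-type counts were Ndrg1, at 14463 and 18927 normalised counts in the pairs and 7064 in the knockout mean, and the kinase gene Dgkz at 21448 and 13245 against 13054. Between the wild-type pairs, 6 of the 32 targets were at least 2-fold higher in libraries 3 and 4, among them Id3 and Cdkn1a. With a wild-type mean of at least 100 normalised counts, where 1.6% of all features were, these were 2 of 21 targets, Cdkn1a and Socs3. The median log2 ratio of the list was 0.24, against 0.02 for all tested features with a mean of at least 10 normalised counts. For the single gene Egr1 the log2 ratio was 5.05. The widest rise between the pairs among the listed targets was 8.48-fold, for Id3.

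No listed gene upstream of Egr transcription was 2-fold apart between the pairs, and few features of any kind were. Of 13089 features with a wild-type mean of at least 100 normalised counts, 1.6% were at least 2-fold higher in libraries 3 and 4 and 4.52% lower. The pair ratios are thus no result about the list. All 19 listed SRF, Elk, MAP kinase and CREB pathway genes passed the minimum, and their ratios of libraries 3 and 4 to libraries 1 and 2 ran from 0.623 to 1.31. By the authors' deposited values, 1 of the 19 rose and 0 fell, with a median log2 fold change of 0.21. At 3.72% of all features called higher and 4.3% lower, this count is near the background and is no result about the list. The gene that rose was Elk4, a ternary complex partner of SRF, which the authors' deposited table put at 8.90-fold (adjusted p 0.00966). Its normalised counts were 3467 and 2162 in the pairs and 25037 in the knockout mean, so the knockout value stood above both. Among those not called with high wild-type counts were the ribosomal S6 kinase gene Rps6ka1, with a log2 fold change of -0.33, and Creb1 at 0.29, both in the authors' deposited table.

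All 13 listed NuRD subunits passed the minimum and none was called in either direction in the authors' deposited table, whose median log2 fold change for them was 0.38. With 3.72% of all features called higher and 4.3% lower, 0 of 13 does not set these genes apart. Their ratios between the wild-type pairs ran from 0.665 to 1.17. Chd4, the remodelling ATPase that Nab2 is known to bind, was at 42673 and 45973 normalised counts in the pairs and 68794 in the knockout mean, with a log2 fold change of 0.63. The histone-binding subunits Rbbp4 and Rbbp7 had log2 fold changes of -0.25 and -0.10. Unadjusted p-values were not used here, and the missed threshold does not show that these genes did not differ.

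**Figure D4:**
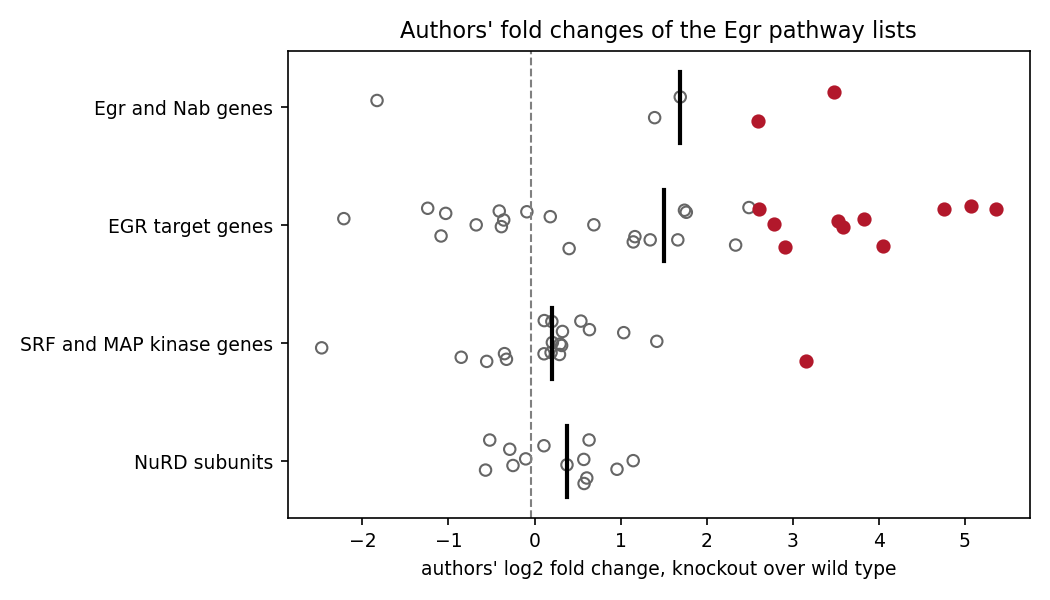
Authors' deposited log2 fold change of each gene past the minimum in 4 lists, with genes called at an adjusted p under 0.05 as filled red points, other genes as open circles, the list median as a black bar and the median of all features as a dashed line. The 10 Egr targets that rose lie on the right, and the SRF and MAP kinase genes hold 1 filled point, Elk4.

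Genes with the most similar profile were sought among 10731 other gene symbols with a mean of at least 100 normalised counts, by Euclidean distance between centred log2 values over 3 values, namely both wild-type pairs and the knockout mean. With 3 values many genes can lie close by. Nearest to Egr1 were Fos, Dusp1 and Btg2, at distances of 0.66, 0.72 and 1.18, all high in libraries 3 and 4 with a knockout mean between the pairs. Nearest to Egr2 were Fosb at 0.21, Hes1 at 0.32 and Zfp36 at 0.58. Nearest to Egr3 were Nr4a1, Ptgs2 and Atf3, at distances from 1.10 to 1.18, so the nearest genes lay farther from Egr3 than those of Egr2 did. Nearest to Nab1 were Rilpl2, Meis3 and Hdhd3, at 0.02 to 0.03, and nearest to Nab2 were the Egr target Icam1, Dnajb6 and Pawr, at 0.01 to 0.04. Icam1, an adhesion molecule, stood at 2116 and 2719 normalised counts in the pairs and 14788 in the knockout mean.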

How the data were processed

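RNA was extracted with a Qiagen RNeasy Micro kit and libraries were made with a TruSeq kit after polyA selection, per the labels. The authors deposited whole read counts per feature for each wild-type library. The deposited length-scaled signal, headed FPKM, is the count per kb over a constant and gave exon lengths only. The authors' mean count of the knockout arm is taken as an average of unscaled counts over 4 libraries, since 4 times its value is whole for all 34315 features. The log2 fold change and the p-value, read as adjusted, are those of the authors' deposited table. Per the submitters' processing notes, mm9 was the build and DESeq a tool, with no version or role given. The labels name no aligner, counter or annotation. Left out were 8 per-library columns that match no sample here.

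Each wild-type library was scaled by its median-of-ratios size factor (0.951, 0.955, 1.05 and 1.06). A log2 offset brought the knockout mean to the same scale, 0.399 (SD 0.003 over 11936 features with both means of at least 100), the median difference between the authors' fold change and the raw ratio. Agreement within pairs was checked by chi-square per degree of freedom over features with at least 20 reads, whose median was 0.766 for libraries 1 and 2, 0.685 for libraries 3 and 4 and 7.59 over all 4. Counting noise alone puts such a median below 1, and lower for a pair than for all 4, so these values are not on 1 scale. Intervals are exact (Clopper-Pearson) at 95% and cover counting error only. Ratios were also run on simulated counts that held counting noise alone, as the intervals assume. That run cannot show how the intervals do where libraries differ by more. Calls are the authors' at an adjusted p under 0.05, and no test between genotypes was run. Profiles used log2 of the normalised count plus 1.

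The members, the gene lists and the tests were chosen with earlier results of these data known. Named genes were the 5 members, the 3 nearest profiles of each, up to 6 called genes per list with the largest changes and up to 3 uncalled genes with the highest wild-type counts, beside cell type markers, overlapping features, and Gdf15, Ptges, Hbegf and Socs3, which were named after their values were seen. Some genes this rule names are not reported here. Alternatives were library totals, TMM factors (edgeR 4.0.16), each wild-type pair alone, leaving out each library, and other minimum levels. Scripts used Python 3.11.15 with scipy 1.17.1.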

Additional observations from a re-analysis of the deposited data

How the results depend on the processing

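No paired analysis was possible because the samples form 1 labelled group. The largest dependence was on the wild-type pair. Against libraries 1 and 2 alone the log2 ratio of the knockout mean to wild type was 2.27 for Egr1, where the main value was -1.83, 5.55 for Egr2 and 9.15 for Egr3, and against libraries 3 and 4 alone all 5 genes kept the direction of the authors' value. Scaling the arms by library totals lowered the median of all features by 0.34 on the log2 scale, from -0.04 to -0.38, and gave 1.06 for Nab1 and 2.27 for Nab2, still above that median. With TMM factors the 5 ratios moved by less than the spread between the pairs. Between the pairs, library totals gave log2 ratios of 4.98 for Egr1 and 0.27 for Nab1. Leaving out each library gave 4.28 to 5.61 for Egr2, the upper value without library 1, where 6 reads remained in the first pair. The share of features at least 2-fold apart in either direction was 6.11% at a minimum mean of 100, 12.9% at a minimum of 10 and 29.6% with at least 1 read. Called Egr targets numbered 8 at a minimum mean of 100 and 10 with no minimum. The minimum is a mean over both arms, and some of these genes reach it only by their knockout value. These counts therefore do not check the calls. Of the 5 genes, the order by level in libraries 1 and 2 did not depend on dividing by length. Depth limits Egr2 and Egr3 in libraries 1 and 2, which held 4 to 15 reads each.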
